A study of Mus musculus with 7 samples.

Results

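The ligands described here are 9 secreted proteins of the transforming growth factor beta (TGF-beta) superfamily, *Tgfb1*, *Tgfb2*, *Tgfb3*, *Inhba*, *Inhbb*, *Bmp2*, *Bmp4*, *Bmp7* and *Gdf15*, taken by name as possible sources of signals in seminal fluid. They are 9 of the 30406 genes that the count tables of 23 mice share, listed by name with no limit on their measured level. Ligands of this superfamily are released as dimers, and most bind pairs of receptor kinases, which phosphorylate Smad proteins that enter the nucleus. TGF-betas and activins act mainly through *Smad2* and *Smad3*, bone morphogenetic proteins (BMPs) through *Smad1*, *Smad5* and *Smad9*, and most members are held back outside the cell by binding proteins. TGF-beta is abundant in the seminal plasma of many mammals, where it is known for its effect on the immune response of the female tract to mating.

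The tissue was the mouse seminal vesicle, a gland whose epithelium secretes much of the fluid of the ejaculate, dissociated to single cells and counted as unique molecular identifiers (UMIs), each standing for 1 captured RNA molecule. An aging pool held 10 C57BL/6J mice on chow, 2 each of 3, 20 and 28 months without rapamycin and 2 each of 20 and 28 months given rapamycin, and a diet pool held 8 FVB/NJ mice of 3 months, 2 each on control diet, high fat diet, low protein diet and caloric restriction. Single-mouse libraries came from 3 FVB/NJ mice of 3 months on control, high fat and low protein diet, and from a young (3 months) and an old (18 months) FVB/NJ individual on control diet. GEO's labels give no condition for the mice inside the pools, so those came from the names of the per-mouse tables and the study's own sample list. No source used here says that the 2 mice of a group came from separate litters or days, so p-values measure the spread between these mice.

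After filtering, 40306 of 53352 deposited cells remained, with 971402 to 46326504 UMIs per mouse. Among 253 pairs of mice the largest number of shared cell barcodes was 30, between the young and old libraries (0.280% of the smaller table), and the largest share was 0.792%, from 4 barcodes. The young and the old individual stood apart from the other 21 mice: seminal vesicle secretory protein (*Svs*) genes took 0.000607% to 0.00110% of their UMIs, against 7.87% to 64.0% elsewhere, and the epididymis genes *Lcn8*, *Lcn9*, *Gpx5*, *Crisp1* and *Adam7* took 4.01% to 6.76%. Main class and subset results are therefore given with and without these individuals, and the other 21 mice are called Svs-rich. Comparisons of 1 class with another were fitted only with them included. By these genes the young and old libraries went against their labelled tissue, and the part of this in their values was not tested.

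Cells were sorted by marker UMIs into smooth muscle (3093 cells), fibroblasts (4639), endothelial cells (1530), macrophages (1370), basal epithelial cells (5729) and secretory cells (9621), the last by an *Svs* share of at least 25% of UMIs. The panels that sorted the cells also held markers beyond the gate genes, so the levels of these are no independent check. Summed over mice, *Pdgfra* stood at 304 UMIs per 1000000 UMIs (CPM) in fibroblasts and at most 65.0 in the other 5 classes. *Cdh5* stood at 1238 CPM in endothelial cells and at most 7.19 elsewhere. *Csf1r* was at 524 CPM in macrophages and at most 3.55 elsewhere, and *Trp63* at 127 CPM in basal cells and at most 1.82. Smaller classes, such as T and NK cells and prostate-like cells, were sorted by their panels, with limits of their own and no gate gene. Of all cells, 6.28% remained in more than 1 class and 11.9% passed none. A class was used in a mouse where it had at least 10 cells, which left 13 mice for smooth muscle (none of the aging pool), 23 for fibroblasts and macrophages, 21 for endothelial and basal cells, and 21 for secretory cells (neither individual). Levels and their order below are among these 6 classes, as CPM of all UMIs of a class in a mouse. Differences are log2 fold changes of the class against the mean of the other 5, taken over their log2 levels with equal weight. They come from the quasi-likelihood test of edgeR, blocked by mouse, with p adjusted over all 5963 genes tested. A class can therefore be called higher though its CPM lies below the plain mean of the other classes. *Inhbb* in smooth muscle, at a mean of 22.6 CPM against 304 CPM in endothelial cells, is such a case.

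By log2 level, most of the 9 ligands were higher in fibroblasts and smooth muscle than in the mean of the other classes. Most were lower in secretory cells. Most smooth muscle cells, 2686 of 3093, were of the young and the old individual, which are 2 of its 13 mice. The fit is of UMI sums and does not weight mice equally. Smooth muscle sums of these individuals held 2172543 and 2152835 UMIs, against at most 575634 in any other mouse. All 9 members passed the filter on low counts, and of the 54 pairs of a member and a class, 24 were higher and 21 lower than the mean of the other classes. In fibroblasts 7 members were higher and 2 lower, where 35.5% of all genes tested were higher and 24.0% lower, and the median member stood at 1.95 against 0.05 for all genes. In smooth muscle 6 were higher and 1 lower (all genes 26.6% and 27.5%), with a median of 1.67 against -0.09. Macrophages had 4 higher and 3 lower (31.6% and 38.8%), basal cells 4 and 4 (28.6% and 38.7%), and endothelial cells 2 and 4 (27.7% and 38.7%), with medians of 0.50, 0.36 and -0.77 against -0.14, -0.12 and -0.19 over all genes. The 4 in endothelial cells include *Bmp7*, which had 0 UMIs there, and their median is the same with *Bmp7* at its counting bound. Secretory cells had 1 higher and 7 lower (39.9% and 41.5%), with a median of -2.17 against -0.06. The 1 higher was *Bmp7*, and the mean it is set against includes the endothelial class with 0 UMIs. Scaling by library size alone moved the median of all genes in secretory cells to -2.44, and those of smooth muscle, fibroblasts, endothelial and basal cells to 0.43 to 0.64, so each value is relative to the other genes of the same cells. Without the young and the old individual 22 pairs were higher and 21 lower. The pairs lost were *Bmp2* in smooth muscle and *Bmp7* in secretory cells. Within the aging pool alone, which has no smooth muscle, 10 were higher and 11 lower of 30 tested, and within the diet pool 16 were higher and 15 lower of 42. Neighbors in the order of levels are compared below by the same fit, and such comparisons of 1 class with another call many genes in either direction. The share called was 39.5% of all genes tested for smooth muscle against fibroblasts, 57.5% for smooth muscle against endothelial cells, 69.3% and 63.8% for fibroblasts against macrophages and basal cells, 60.0% and 59.5% for endothelial cells against macrophages and basal cells. It was 66.9% for macrophages against basal cells.

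**Figure D1:**
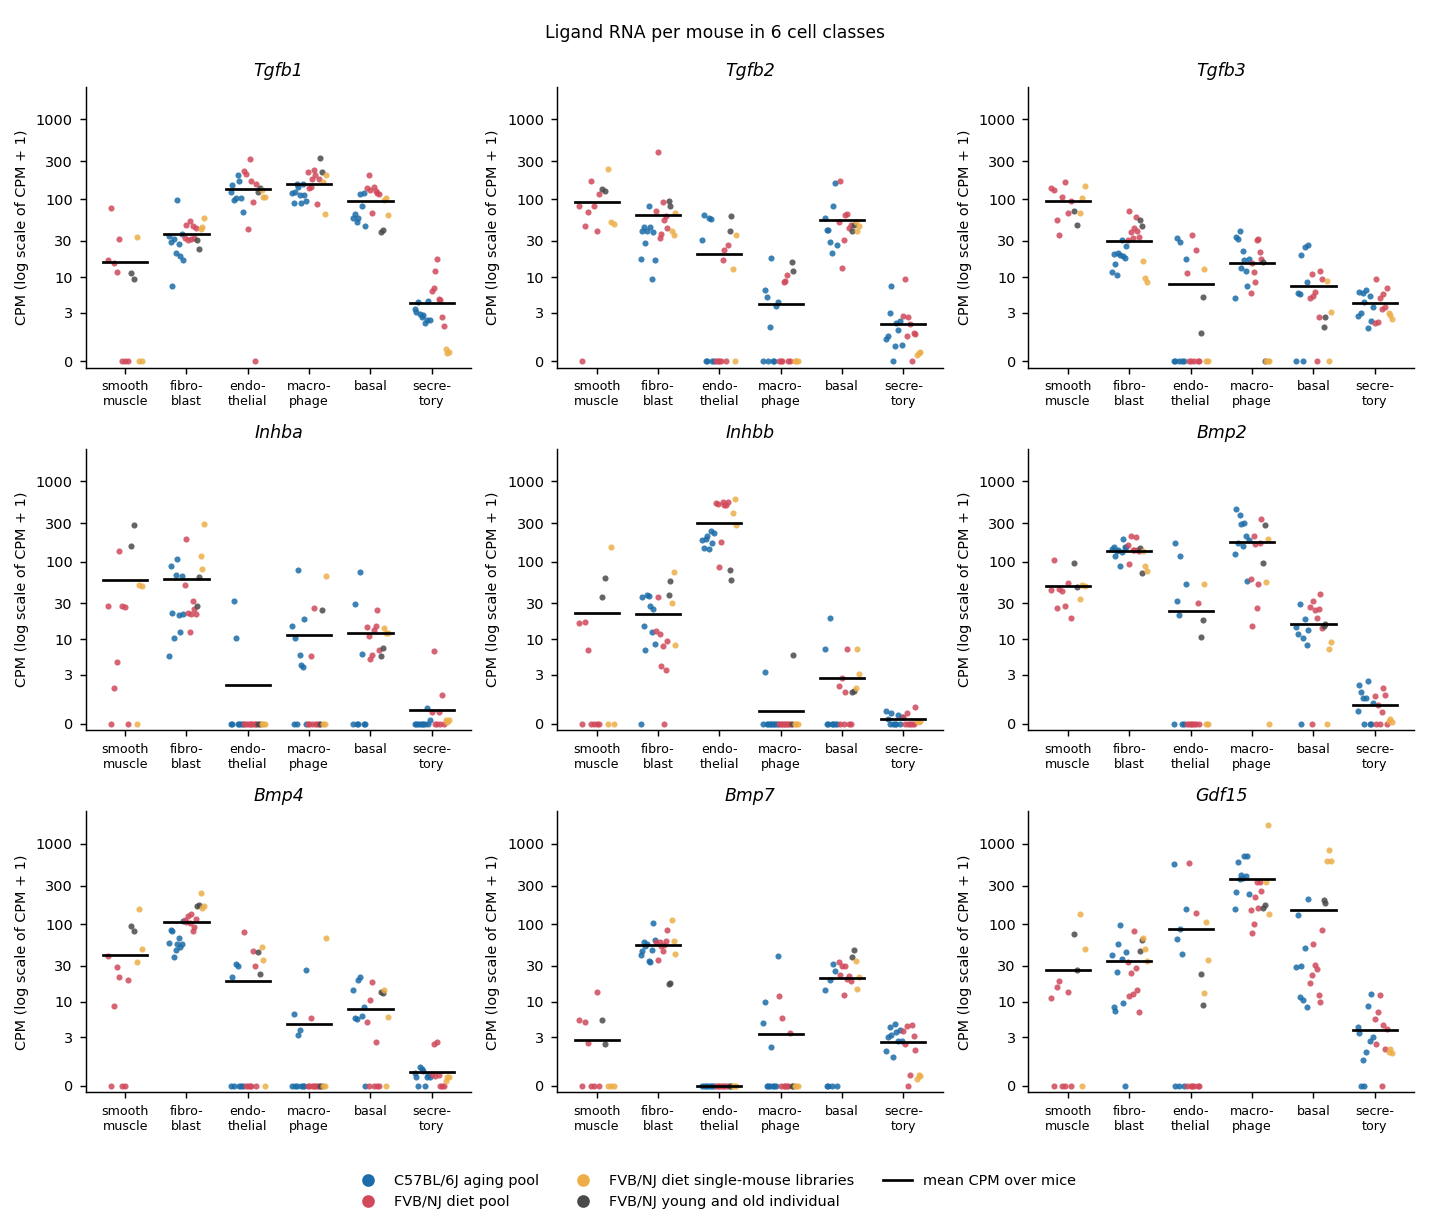
CPM of each ligand per mouse (points, log scale of CPM + 1) in 6 cell classes, colored by library set, with the mean over mice as a bar. Mean levels of *Tgfb1* and *Gdf15* are highest in macrophages, those of *Inhbb* in endothelial cells and *Bmp4* and *Bmp7* in fibroblasts, while the secretory points lie near the bottom of every panel.

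**Figure D2:**
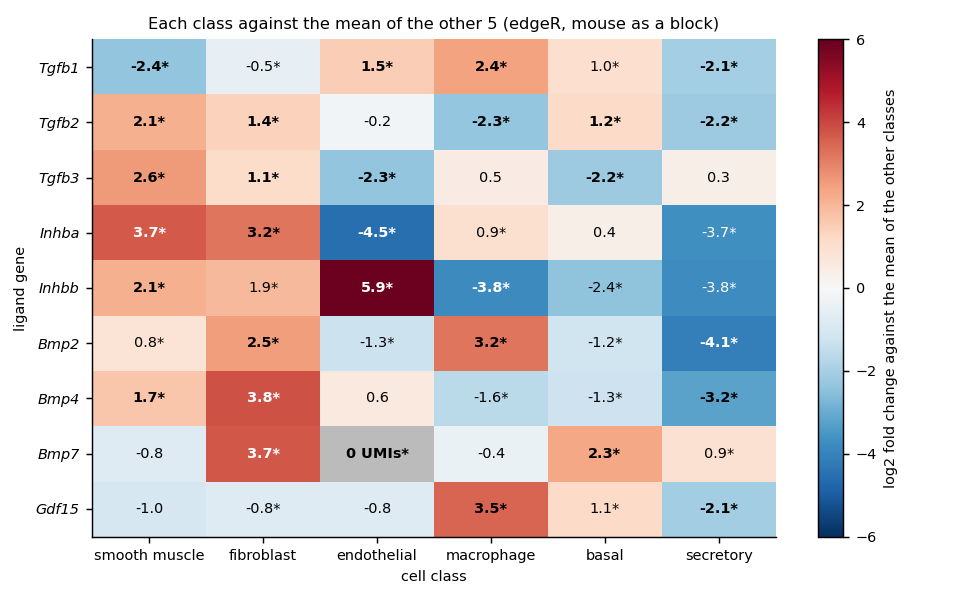
Log2 fold change of each class against the mean log2 level of the other 5 (color and number). An asterisk marks adjusted p under 0.05, and bold type a call that was the same in every alternative setting that could be run. The 6 and 7 positive calls in the smooth muscle and fibroblast columns stand against 7 negative ones in the secretory column, and *Bmp7* had 0 UMIs in endothelial cells.

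*Tgfb1*, the TGF-beta isoform best known for restraining immune cells, was highest in macrophages among the 6 classes. T and NK cells, outside them and not in the fit, averaged 170.4 ± 70.8 CPM (SD, n = 23). Its lowest, median and highest level over mice was 64.8, 142 and 327 CPM in macrophages, 0, 124 and 320.1 CPM in endothelial cells and 38.9, 98.4 and 201 CPM in basal cells. Mice of these 3 classes overlapped in level. The means were 154 ± 60.2 CPM (SD, n = 23), 135 ± 68.3 CPM (SD, n = 21) and 94.7 ± 42.2 CPM (SD, n = 21), against 36.6 ± 18.2 CPM (SD, n = 23) in fibroblasts, 16.1 ± 22.0 CPM (SD, n = 13) in smooth muscle and 4.19 ± 4.04 CPM (SD, n = 21) in secretory cells. With *Svs* UMIs left out of the total the secretory mean was 10.3 CPM. Macrophages exceeded the mean of the other classes by a log2 fold change of 2.42 (SE 0.15, adjusted p = 2.29e-29), with 1.89 in the aging pool alone, 2.23 in the diet pool alone and 2.32 without the young and the old individual. Endothelial cells came to 1.46 (SE 0.19) and basal cells to 1.03 (SE 0.15), while smooth muscle was lower at -2.38 (SE 0.30), secretory cells at -2.06 (SE 0.19) and fibroblasts at -0.48 (SE 0.17). In the order of levels macrophages differed from endothelial cells (adjusted p = 0.000553), which did not differ from basal cells beyond their spread (adjusted p = 0.144); basal cells differed from fibroblasts (adjusted p = 8.20e-09) and fibroblasts from smooth muscle (adjusted p = 3.52e-05).

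*Tgfb1* lies on chromosome 7 at 25687002-25705077 on the plus strand (GRCm38). Its promoter is shown because UMIs of this ligand were found in the largest share of all cells, 11.2%, and that of *Inhbb* because it had the highest log2 fold change of the 54 pairs. Each runs from 250 bases before to 50 after the gene's start (RefSeq, GRCm38.p6), 5′ to 3′ on the gene's strand, at chr7:25686752-25687051 (plus) and chr1:119422199-119422498 (minus), with the GC box GGGCGG, or CCGCCC where it lies on the other strand, in capitals.
Tgfb1: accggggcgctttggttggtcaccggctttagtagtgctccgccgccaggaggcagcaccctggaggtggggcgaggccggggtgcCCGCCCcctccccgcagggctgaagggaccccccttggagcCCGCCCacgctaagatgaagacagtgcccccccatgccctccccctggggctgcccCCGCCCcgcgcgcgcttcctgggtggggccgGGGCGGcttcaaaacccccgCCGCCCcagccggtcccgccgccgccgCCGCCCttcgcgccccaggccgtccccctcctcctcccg
Inhbb: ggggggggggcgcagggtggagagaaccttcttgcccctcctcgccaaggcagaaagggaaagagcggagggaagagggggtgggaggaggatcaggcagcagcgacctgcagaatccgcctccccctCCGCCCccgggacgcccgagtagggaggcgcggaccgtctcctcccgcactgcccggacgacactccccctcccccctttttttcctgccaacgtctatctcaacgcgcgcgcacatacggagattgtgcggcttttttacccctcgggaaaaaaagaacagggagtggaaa
The *Tgfb1* window held 6 GC boxes at 77.0% G and C and the *Inhbb* window 1 at 64.3%, where 35.7% of 32851 RefSeq promoters of this length held at least 1. Neither window held the AP-1 motif TGANTCA (7.81% of promoters) or the cyclic AMP response element TGACGTCA (1.79%), both searched on both strands, and no match overlapped another. Promoters of 6 of the 9 members were matched by symbol; those of *Tgfb2*, *Inhba*, *Bmp4* and *Gdf15* are not printed.

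*Tgfb2*, the isoform most tied to epithelial and mesenchymal development, was shared by smooth muscle, fibroblasts and basal cells. Its lowest, median and highest level was 0, 82.5 and 236 CPM in smooth muscle, 9.55, 43.5 and 392 CPM in fibroblasts and 13.4, 45.9 and 168 CPM in basal cells, and these ranges overlapped. The means were 92.8 ± 63.0 CPM (SD, n = 13), 63.9 ± 75.4 CPM (SD, n = 23) and 55.8 ± 39.5 CPM (SD, n = 21), with 20.3 ± 23.9 CPM (SD, n = 21) in endothelial cells and 12 of 23 mice at 0 in macrophages. The log2 fold change was 2.12 (SE 0.25, adjusted p = 1.54e-12) in smooth muscle, 1.40 (SE 0.18) in fibroblasts and 1.17 (SE 0.20) in basal cells, and -2.34 (SE 0.35) in macrophages. Neither smooth muscle and fibroblasts (adjusted p = 0.0596) nor fibroblasts and basal cells (adjusted p = 0.455) differed beyond their spread, whereas basal cells exceeded endothelial cells (adjusted p = 0.00189). The smooth muscle value was 2.47 in the diet pool alone and 2.22 without the young and the old individual. The basal one was 2.09 in the aging pool alone, 1.59 in the diet pool alone and 1.51 without the young and the old individual. The highest fibroblast value was that of 1 control mouse of the diet pool, 392 CPM from 33 UMIs in 30 cells.

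*Tgfb3*, the isoform known from palate fusion and wound repair, was led by smooth muscle. Smooth muscle ranged from 35.6 over a median of 96.1 to 165 CPM and fibroblasts had 8.45, 25.8 and 71.3 CPM as lowest, median and highest. The lower smooth muscle values lay inside the fibroblast range. The means were 94.9 ± 41.3 CPM (SD, n = 13), 29.5 ± 17.1 CPM (SD, n = 23) and, in macrophages, 15.6 ± 11.8 CPM (SD, n = 23), against 7.61 ± 7.80 CPM (SD, n = 21) in basal cells. Smooth muscle stood at a log2 fold change of 2.56 (SE 0.24, adjusted p = 1.64e-17) and fibroblasts at 1.10 (SE 0.18), while endothelial cells were at -2.34 (SE 0.42) and basal cells at -2.16 (SE 0.28). The smooth muscle value was 2.66 in the diet pool alone and 2.49 without the young and the old individual. The study's text names *Tgfb2* and *Tgfb3* for stromal cells of these libraries, so their stromal levels are no independent evidence. Smooth muscle and fibroblasts differed (adjusted p = 2.19e-05), fibroblasts and macrophages did not beyond their spread (adjusted p = 0.0741). Secretory cells averaged 4.19 ± 2.07 CPM (SD, n = 21) and 10.5 CPM with *Svs* UMIs left out of the total, and their log2 value of 0.35 (adjusted p = 0.102) turned to -2.10 with library size scaling.

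*Inhba* encodes the subunit of activin A, a regulator of follicle-stimulating hormone and of fibrosis, and its RNA was stromal. Fibroblasts had 5.80, 27.4 and 296 CPM as lowest, median and highest, and smooth muscle 0, 27.5 and 284 CPM. Both ranges covered each other almost completely, and a few mice carried the high end of each. The means were 60.4 ± 68.0 CPM (SD, n = 23) and 59.0 ± 84.7 CPM (SD, n = 13), which did not differ beyond their spread over all mice (adjusted p = 0.444). This pair of classes was not compared without the young and the old individual. Smooth muscle stood at a log2 fold change of 3.68 (SE 0.38, adjusted p = 5.93e-15) and fibroblasts at 3.22 (SE 0.28, adjusted p = 1.58e-19). The young and the old individual carried 156 and 284 CPM in smooth muscle and the 11 other mice 29.7 ± 40.7 CPM (SD); without those 2 individuals the log2 value was 1.82 in smooth muscle and 3.17 in fibroblasts. Endothelial cells held 2 UMIs of *Inhba* in all, with 19 of 21 mice at 0. Macrophages passed the threshold at 0.94 (SE 0.43, adjusted p = 0.0461) although 12 of 23 mice were at 0, and this call held in 6 of 12 alternative settings. With DESeq2 the direction turned, to -0.17 (adjusted p = 0.806). The mean that macrophages are set against includes endothelial cells, which they exceeded by 4.56 (SE 0.98) in edgeR's fit.

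*Inhbb* encodes the subunit of activin B, a dimer made by many endocrine tissues, and was led by endothelial cells. Endothelial cells had 59.7, 226 and 607 CPM as lowest, median and highest over 21 mice, from 480 UMIs. Smooth muscle reached 154 CPM and fibroblasts 73.6 CPM, inside the endothelial range, whereas basal cells reached at most 19.4 CPM, below every endothelial value. The mean was 304 ± 186 CPM (SD, n = 21) against 22.6 ± 43.8 CPM (SD, n = 13) in smooth muscle and 21.7 ± 19.1 CPM (SD, n = 23) in fibroblasts. Endothelial cells stood at a log2 fold change of 5.90 (SE 0.24, adjusted p = 1.86e-44), with 5.79 in the aging pool alone, 6.91 in the diet pool alone and 6.30 without the young and the old individual. Smooth muscle and fibroblasts stood at 2.13 (SE 0.35) and 1.95 (SE 0.25). Smooth muscle and fibroblasts did not differ beyond their spread (adjusted p = 0.780). Macrophages had 2 UMIs in all and secretory cells 17.

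The endothelial level of *Inhbb* was itself unequal between the sets of libraries. It was 190.2 ± 33.6 CPM (SD, n = 8) in the C57BL/6J mice of the aging pool, 429 ± 186 CPM (SD, n = 8) in the FVB/NJ mice of the diet pool and 405, 607 and 284 CPM in the diet single libraries. The young and the old individual, also FVB/NJ, had 77.9 and 59.7 CPM, the lowest values of all, from 124 and 46 UMIs. Strain, pool and tissue content differ together between these sets, so their parts cannot be told apart and no test was made between them. *Inhbb* lies on chromosome 1 at 119415465-119422248 on the minus strand (GRCm38).

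*Bmp2*, a ligand named for bone formation that macrophages of the gut wall also release, was highest in macrophages and fibroblasts. Macrophages had 0, 169.9 and 456 CPM as lowest, median and highest and fibroblasts 73.0, 139.9 and 207 CPM, with a wider spread in the former. The ranges overlapped, and the only mouse without a UMI in macrophages was that of the single low protein library. The means were 175 ± 125 CPM (SD, n = 23), 138 ± 35.9 CPM (SD, n = 23) and, in smooth muscle, 49.5 ± 25.3 CPM (SD, n = 13). Macrophages stood at a log2 fold change of 3.20 (SE 0.18, adjusted p = 1.86e-32) and fibroblasts at 2.52 (SE 0.16, adjusted p = 1.04e-27), and they differed from each other by 0.57 (SE 0.20, adjusted p = 0.00744). The macrophage value was 3.70 in the aging pool alone, 3.33 in the diet pool alone and 3.26 without the young and the old individual. In smooth muscle the value was 0.84 (SE 0.27, adjusted p = 0.00658), and 0.35 (not past the threshold) without the young and the old individual. Basal, endothelial and secretory cells were lower, at -1.19 (SE 0.24), -1.29 (SE 0.36) and -4.09 (SE 0.29). The basal direction did not hold in the diet pool alone, at 0.0068 (adjusted p = 0.951), against -1.98 in the aging pool alone.

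*Bmp4*, a mesenchymal ligand that limits ductal budding in the developing prostate, was highest in fibroblasts. Fibroblasts had 39.0, 104 and 247 CPM as lowest, median and highest and smooth muscle 0, 28.5 and 154 CPM. The highest macrophage and basal values, 66.3 and 21.1 CPM, were under the fibroblast median, and basal cells did not overlap with fibroblasts. The means were 106 ± 51.2 CPM (SD, n = 23) and 40.8 ± 45.3 CPM (SD, n = 13), with a log2 fold change of 3.84 (SE 0.16, adjusted p = 8.44e-43) and 1.67 (SE 0.27, adjusted p = 5.66e-08). The fibroblast value was 3.53 in the aging pool alone, 4.36 in the diet pool alone and 3.90 without the young and the old individual. Fibroblasts differed from smooth muscle (adjusted p = 1.15e-08), smooth muscle from endothelial cells (adjusted p = 0.0263) and endothelial from basal cells (adjusted p = 0.000127). The fibroblast level by set was 65.2 ± 21.2 CPM (SD, n = 10) in the aging pool, 109 ± 17.0 CPM (n = 8) in the diet pool, 191 ± 49.1 CPM (n = 3) in the diet single libraries and 169 and 173 CPM in the young and the old individual.

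*Bmp7*, known for its part in kidney and urogenital development, was found in fibroblasts and epithelium. Fibroblasts had 17.5, 53.2 and 114 CPM as lowest, median and highest and basal cells 0, 21.4 and 47.5 CPM, and the ranges overlapped. The means were 54.1 ± 22.7 CPM (SD, n = 23) and 20.7 ± 13.3 CPM (SD, n = 21). The log2 fold change was 3.74 (SE 0.28, adjusted p = 5.31e-22) in fibroblasts and 2.30 (SE 0.32, adjusted p = 1.26e-09) in basal cells, and the pair differed (adjusted p = 5.16e-05). The young and the old individual had the lowest fibroblast values, 17.5 and 18.1 CPM, and without them the fibroblast value was 3.79. Endothelial cells had 0 UMIs of *Bmp7* in 1521 cells of 21 mice. With a floor of 3 counts over the class, their summed level was under 0.921 CPM (counting error only). Fibroblasts of the same mice had 48.0 CPM, from 514 UMIs summed over mice. The young and the old individual gave 1591845 and 770430 of the 3255645 endothelial UMIs, and their fibroblasts had the lowest values. These sums thus weight mice unlike, and no fold change between them is given. Secretory cells had 2.51 ± 1.61 CPM (SD, n = 21), or 6.27 CPM with *Svs* UMIs left out of the total. Their log2 value was 0.89 (SE 0.35, adjusted p = 0.0162), but 0.76 (not past the threshold) with both individuals left out and -1.01 with library size scaling. Each *Bmp7* value outside endothelial cells is set against a mean that includes that class with 0 UMIs. Secretory cells exceeded it by 5.53 (SE 1.07) in the same fit, and its part in these values was not tested.

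*Gdf15*, a distant member of the family that cells release under mitochondrial and proteotoxic stress, had its highest mean in macrophages, but not in every library. Of 21 mice with both classes, macrophages were above basal cells in all 16 of the pools and in 1 of the 5 single-mouse libraries. Macrophages had 76.8, 259 and 1684 CPM as lowest, median and highest and basal cells 8.52, 30.6 and 841 CPM. The ranges overlapped, and the top macrophage value was that of the single high fat library, from 26 UMIs. The means were 361 ± 338 CPM (SD, n = 23) and 151 ± 236 CPM (SD, n = 21), with 85.7 ± 166 CPM (SD, n = 21) in endothelial cells, 34.7 ± 25.8 CPM (SD, n = 23) in fibroblasts and 3.87 ± 3.71 CPM (SD, n = 21) in secretory cells, or 9.48 CPM there with *Svs* UMIs left out of the total. Macrophages stood at a log2 fold change of 3.49 (SE 0.27, adjusted p = 3.26e-22), with 3.74 in the aging pool alone, 3.42 in the diet pool alone and 3.68 without the young and the old individual. They differed from basal cells (adjusted p = 5.44e-07), which differed from endothelial cells (adjusted p = 0.00676).

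The level of *Gdf15* in basal cells differed between sets of libraries. The diet single libraries had 608, 841 and 608 CPM and the young and the old individual 197 and 186 CPM, against 59.6 ± 71.7 CPM (SD, n = 8) in the aging pool and 32.6 ± 25.5 CPM (SD, n = 8) in the diet pool. The 3 diet single libraries lay above every mouse of both pools. Macrophages of the single control, high fat and low protein libraries had 334, 1684 and 133 CPM and those of the young and the old individual 159 and 171 CPM, so basal cells were higher in 4 of these 5 mice. The log2 value of 1.13 (SE 0.29, adjusted p = 0.000431) over all mice was -0.15 in the aging pool alone and -0.26 in the diet pool alone, so the basal rank of *Gdf15* did not hold within either pool. The summed level of 6 genes of the integrated stress response (*Ddit3*, *Atf4*, *Trib3*, *Chac1*, *Asns* and *Sesn2*) in basal cells was 705 to 746 CPM in the diet single libraries and 792 to 848 in the young and the old individual, against 292 to 682 and 263 to 569 in the aging and the diet pool. Basal cells of the diet single libraries had a median of 1067 to 1222 UMIs, against 3474 to 7318 in the pools, and the part of either in the *Gdf15* level was not tested. Fibroblasts had a like difference in this sum, 740 to 913 CPM in the diet single libraries against 312 to 507 in the pools. Their *Gdf15* level was 33.8 to 66.9 CPM in the diet single libraries and 0 to 96.6 CPM in the pools. A sum of 10 immediate early and heat shock genes (among them *Fos*, *Jun* and *Hspa1a*) was also taken in basal cells. It was 8133 to 9177 CPM in the diet single libraries and 5852 to 18718 CPM in the pools. The part of these sums, of depth and of the kind of library in the *Gdf15* levels was not tested.

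Which class held most of the RNA of a ligand depends on how many cells and UMIs the class contributed, and shares are of the captured cells, not of the gland. In the 21 Svs-rich mice fibroblasts held 57.3% ± 16.6 (SD) of the UMIs of *Bmp4*, 44.9% ± 21.1 of *Inhba*, 39.2% ± 14.6 of *Bmp2* and 33.2% ± 15.5 of *Bmp7*. Endothelial cells held 40.5% ± 18.6 of *Inhbb*, from 1.87% of the 22038 cells of these mice. Macrophages held 33.5% ± 23.8 of *Gdf15*, 24.5% ± 19.9 of *Bmp2* and 16.0% ± 8.40 of *Tgfb1*, while basal cells held 19.0% ± 15.9 and T and NK cells 9.16% ± 4.69 of *Tgfb1*. Secretory cells, at 4.19 CPM, still held 29.2% ± 26.4 of *Tgfb3*. Over all cells of these mice their median was 13626 UMIs per cell, against 2390.5 in fibroblasts. Of the 9621 secretory cells 8446 were of the diet single libraries. Secretory medians per mouse were 10804 to 15366 UMIs there and 20186.5 to 60049 in the pools. With the young and the old individual included, the share was 38.6% ± 19.3 for *Inhbb* in endothelial cells and 54.3% ± 18.7 for *Bmp4* in fibroblasts.

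**Figure D3:**
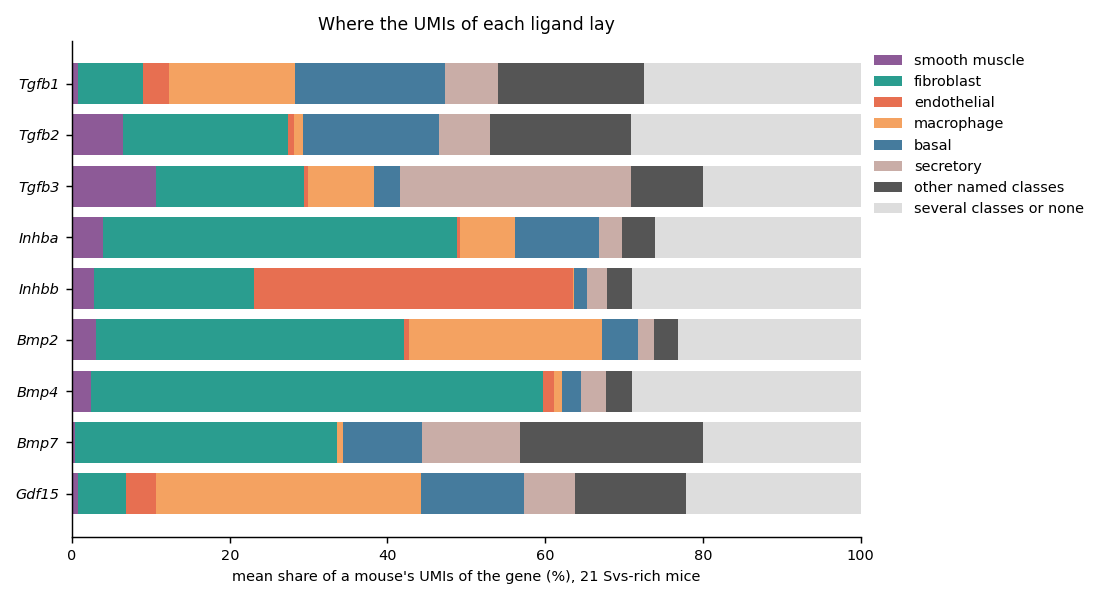
Mean share (%) of a mouse's UMIs of each ligand that lay in each cell class, over the 21 Svs-rich mice. Fibroblasts hold the largest named share of *Inhba*, *Bmp2*, *Bmp4* and *Bmp7*, endothelial cells that of *Inhbb* and macrophages that of *Gdf15*; pale gray marks cells that passed several classes or none.

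Few cells carried a UMI of any ligand. Each cell was thinned to 1000 UMIs outside the *Svs* genes, which for secretory cells is not the scale of the CPM. The shares of cells with at least 1 UMI were then low also in the leading class. They were 24.6% ± 14.0 (SD over mice) of endothelial cells for *Inhbb* and 0.223% ± 0.364 of basal cells, in which 29 UMIs of it were found. For *Tgfb1* the share was 14.4% ± 4.84 of macrophages and 0.900% ± 0.760 of secretory cells, and for *Gdf15* 11.7% ± 4.50 and 0.888% ± 1.01. *Bmp2* was found in 11.2% ± 7.08 of macrophages and 10.99% ± 2.39 of fibroblasts, and *Bmp4* in 9.08% ± 3.72 of fibroblasts. Before thinning these shares were 39.1% and 1.65% for *Inhbb*, 33.7% and 11.2% for *Tgfb1*, 18.2% and 7.97% for *Gdf15*, and 20.5%, 23.7% and 20.3% for *Bmp2* and *Bmp4*. Thinning left out 262 endothelial cells, 582 fibroblasts, 28 macrophages, 440 basal and 8 secretory cells with fewer UMIs outside the *Svs* genes.

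Macrophages were divided by the markers of 2 states, cells with UMIs of *Mrc1* or *Cd163*, scavenger receptors of resident macrophages, and cells with UMIs of *Trem2* or *Cd72*. In the 14 mice with at least 10 cells of each state, *Bmp2* was higher in the *Mrc1*/*Cd163* cells of every mouse. It averaged 365 ± 220.2 CPM (SD, n = 14) in 265 *Mrc1*/*Cd163* cells, from 97.3 to 823, and 69.9 ± 70.2 CPM in 328 *Trem2*/*Cd72* cells, from 0 to 244. The ranges overlapped across mice, and each mouse had more in its *Mrc1*/*Cd163* cells (two-sided exact permutation test of the paired difference, p = 0.000122, the smallest that 14 mice allow). In edgeR's fit with the mouse as a block the log2 fold change was 2.51 (SE 0.31, adjusted p = 6.97e-06), where 18.7% of the 814 genes tested were higher and 15.4% lower, and 2.38 (SE 0.34, adjusted p = 0.000100) without the young and the old individual. The study's text names *Bmp2* for the *Mrc1*/*Cd163* state from these same cells, so this is a measure of its size and not independent evidence.

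The other members with enough UMIs differed among themselves, and none was higher in the *Mrc1*/*Cd163* cells at p under 0.05 in this assignment of cells. *Tgfb1* was at 158 ± 83.8 CPM in *Mrc1*/*Cd163* and 165 ± 82.0 CPM in *Trem2*/*Cd72* cells (exact permutation p = 0.750), higher in 7 of 14 mice. *Gdf15* was at 369 ± 245 CPM and 292 ± 243 CPM (exact permutation p = 0.358), and where every macrophage was given to the larger of both marker sums, at 426 ± 236 CPM and 239.8 ± 169 CPM in 18 mice (permutation p = 0.00391). *Tgfb3* was lower in the *Mrc1*/*Cd163* cells, 9.03 ± 12.6 CPM against 29.3 ± 25.1 CPM, in 10 of the 12 mice that differed (exact permutation p = 0.0264, and 0.00293 by the same exact test without the young and the old individual). *Inhba* had 24 UMIs in the *Mrc1*/*Cd163* cells of 5 mice and 0 in the *Trem2*/*Cd72* cells (exact permutation p = 0.0625). The p-values of this family of 5 tests are unadjusted, and *Tgfb3* and *Inhba* did not pass the filter of the edgeR fit. Median UMIs per cell were 3095.5 and 3274.0 in the *Mrc1*/*Cd163* and *Trem2*/*Cd72* cells.

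Within fibroblasts the BMPs and *Tgfb2* differed in opposite directions in 1 subset. Cells with UMIs of *Rorb*, *Wif1* or *Wnt2* (1430 cells in 11 mice) had more of all 3 BMPs than fibroblasts without UMIs of any subset gene (1098 cells), in each of the 11 mice. *Bmp7* ranged from 59.2 to 173 CPM in the former and from 0 to 38.4 in the latter, without overlap, with means of 94.6 ± 34.4 CPM and 22.2 ± 13.5 CPM (SD, n = 11; exact permutation p = 0.000977, the smallest that 11 mice allow). *Bmp2* averaged 236 ± 120.0 CPM and 96.3 ± 63.1 CPM and *Bmp4* 194 ± 76.4 CPM and 120.1 ± 83.3 CPM, each with the same exact permutation p. *Tgfb2* was lower in the *Rorb*/*Wif1*/*Wnt2* cells in 10 of 11 mice, 28.6 ± 16.6 CPM against 96.3 ± 61.5 CPM (exact permutation p = 0.00195). In edgeR's fit *Bmp2* had a log2 fold change of 1.37 (SE 0.24, adjusted p = 0.00145) and *Bmp4* of 0.80 (SE 0.20, adjusted p = 0.0130), where 5.16% of the 2015 genes tested were higher and 6.25% lower; *Bmp7* and *Tgfb2* did not pass its filter. Without the young and the old individual (9 mice) *Bmp7* was 93.2 ± 34.9 CPM and 21.7 ± 14.8 CPM (exact permutation p = 0.00391), and *Tgfb2* 25.2 ± 15.8 CPM and 101 ± 67.4 CPM (exact permutation p = 0.00781). Median UMIs per cell were 2561 and 2296 in the 2 sides.

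Fibroblasts with UMIs of *Col6a5* or *Clec3b* (898 cells in 10 mice) had less of the BMPs than 1072 fibroblasts without UMIs of a subset gene in the same mice, by *Bmp2* and *Bmp7*. *Bmp2* was at 26.6 ± 26.5 CPM against 102 ± 63.4 CPM, lower in 9 of 10 mice (exact permutation p = 0.00586), and *Bmp7* at 3.54 ± 6.75 CPM against 20.6 ± 13.1 CPM, lower in 8 (exact permutation p = 0.0176). *Bmp4* was at 67.4 ± 37.7 CPM against 117 ± 87.0 CPM (exact permutation p = 0.0469), and its p was 0.188 by the same exact test without the young and the old individual. *Tgfb2* was at 96.2 ± 37.8 CPM and 86.7 ± 55.5 CPM (exact permutation p = 0.619), with no difference past the spread over mice. The fibroblast family holds 20 tests, again unadjusted, and the subsets share comparison cells. No member passed the filter of the edgeR fit of the *Col6a5*/*Clec3b* cells, where 6.64% of the genes tested were higher and 4.21% lower. *Angptl7* cells were numerous enough in 2 mice only, where *Inhba* was at 278 and 492.8 CPM against 75.2 and 164 CPM; a pair of mice cannot reach an exact p under 0.5.

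**Figure D4:**
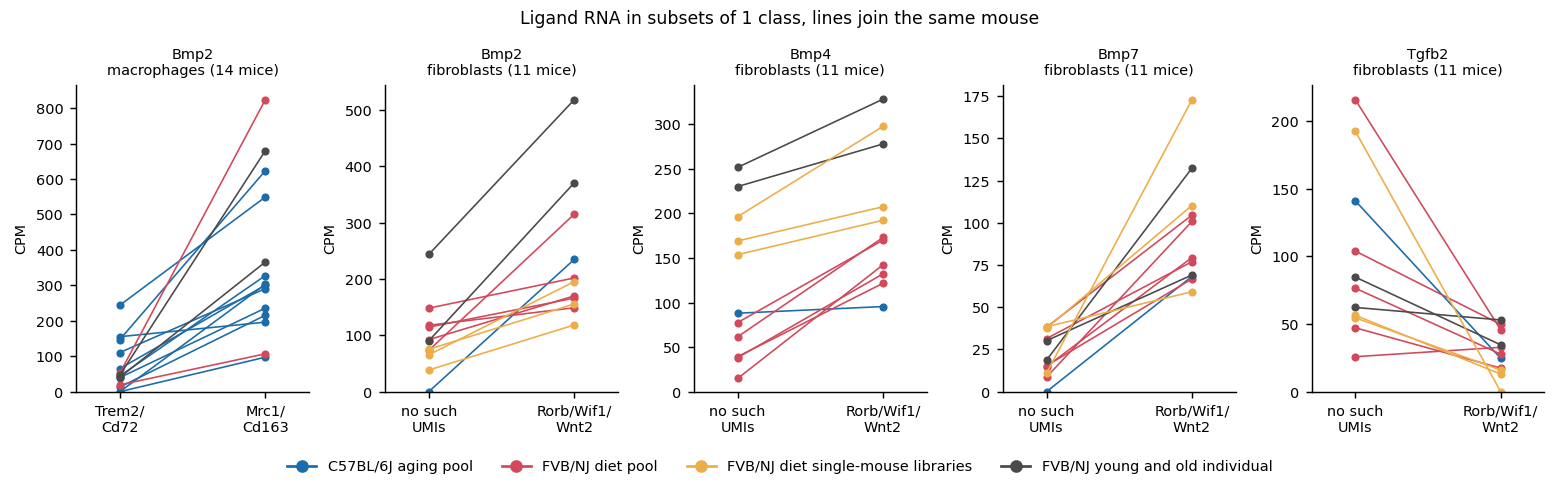
CPM of *Bmp2* in 2 macrophage states (14 mice) and of *Bmp2*, *Bmp4*, *Bmp7* and *Tgfb2* in fibroblasts without and with UMIs of *Rorb*, *Wif1* or *Wnt2* (11 mice); lines join the sides of 1 mouse, colored by library set. All lines of the BMPs rise to the right, and those of *Tgfb2* fall in 10 of 11 mice.

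Genes that hold back, activate or receive these ligands were counted by the same fit, and their counts stand against the shares of all genes given above, from 26.6% higher in smooth muscle to 39.9% in secretory cells and from 24.0% lower in fibroblasts to 41.5% in secretory cells. Of 19 secreted binding proteins and inhibitors 10 passed the filter on low counts, and all 10 were higher in fibroblasts and 8 in smooth muscle, with none lower in either, whereas 8 were lower and none higher in macrophages and in secretory cells, 1 was higher and 7 lower in endothelial cells, and 3 were higher and 4 lower in basal cells. Their median was 3.39 in fibroblasts, 2.66 in smooth muscle and -2.54 in secretory cells. The leading ones were *Chrdl1*, a BMP antagonist, at 5.85 (SE 0.23) in smooth muscle, *Fst*, which binds activins, at 4.24 (SE 0.36) in smooth muscle, and *Bgn*, a proteoglycan that binds TGF-beta, at 5.26 (SE 0.15) in fibroblasts. *Fst* averaged 859 ± 743 CPM (SD, n = 13) in smooth muscle. Of the 23 other ligands of the superfamily only *Gdf10* passed the filter, at 5.20 (SE 0.17) in fibroblasts.

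Most receptor genes tested were higher than in the mean of the other classes in fibroblasts and in endothelial cells, and most were lower in secretory cells. Of 15 receptor genes 8 passed the filter: 7 were higher in fibroblasts and none lower, 6 higher and 2 lower in endothelial cells, 2 and 2 in smooth muscle, 3 and 4 in macrophages, 2 and 3 in basal cells, and 1 and 7 in secretory cells. Over all genes 35.5% were higher in fibroblasts, 27.7% in endothelial cells and 41.5% lower in secretory cells, and the receptor counts in macrophages and basal cells are near the shares of all genes there, 31.6% higher with 38.8% lower and 28.6% with 38.7%. The median receptor stood at 1.12 in endothelial cells and 0.50 in fibroblasts. *Eng*, the endothelial co-receptor, stood at 5.24 (SE 0.15) in endothelial cells. Of 9 activation genes 7 were tested, with 5 higher and 2 lower in basal cells, 3 and 3 in macrophages and in fibroblasts, 3 and 2 in endothelial cells, 1 and 3 in smooth muscle, and 1 and 6 in secretory cells. Different activation genes led in different classes: *Lrrc32*, which displays latent TGF-beta on the cell surface, at 5.07 (SE 0.17) in endothelial cells, *Nrros*, its counterpart in myeloid cells, at 6.05 (SE 0.23) in macrophages, and *Itgb6*, the integrin chain that activates latent TGF-beta on epithelium, at 5.35 (SE 0.23) in basal cells and 1.71 in secretory cells. Of 8 Smads 7 were tested, with 4 higher and none lower in endothelial cells, 4 and 1 in fibroblasts, 3 and 3 in basal cells, 1 and 5 in secretory cells, and none higher with 1 lower in smooth muscle and 5 lower in macrophages. All 9 target genes measured in these mice were tested, with 7 higher and none lower in fibroblasts and 5 and none in smooth muscle. Endothelial cells had 2 and 3, macrophages 4 and 5, basal cells 3 and 3, and secretory cells 2 and 6. Of these *Tgfbi* was at 5.54 (SE 0.19) in macrophages, *Ccn2* at 2.35 (SE 0.24) in basal cells and *Id1* at 0.98 (SE 0.15) in secretory cells. The adjusted p of every gene named from these lists was at most 1.32e-07, and no ligand was tied to a receptor or target.

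Across 122 sums of a mouse and a class (23 mice), the genes whose level most resembled that of a ligand were taken by Pearson's r of log2(CPM + 10), which describes these sums only, since sums of 1 mouse share a library and classes differ in depth. *Tgfb1* was closest to *H2-K1*, *Picalm* and *H2-Q7* (r = 0.847 to 0.832), of which *H2-K1* and *H2-Q7* encode antigen-presenting proteins. *Tgfb3* was closest to *Acta2*, *Hhip* and *Adcy5* (0.775 to 0.771), with the smooth muscle actin *Acta2* first. *Inhba* was closest to *Lox*, *Pi15* and *Loxl1* (0.705 to 0.695), among them 2 collagen cross-linking enzymes, and *Inhbb* to *Galnt15*, *Plvap* and *Dlc1* (0.904 to 0.898), with *Plvap* a protein of fenestrated endothelium. *Bmp2* was closest to *Fth1*, *Timp2* and *Ccl2* (0.811 to 0.801), *Bmp4* to *Col6a2*, *Fbn1* and *Cdh11* (0.840 to 0.814), *Bmp7* to *Gpc1*, *Wnt4* and *Wnt6* (0.853 to 0.827), and *Gdf15* to *Arl4c*, *Apoe* and *Hmox1* (0.760 to 0.744).

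Age was compared within the aging pool, mice of 3 months against those of 20 and 28 months, with rapamycin as a covariate, and no member passed the threshold. In 18 tests of a member in a class (9 members, 4 classes) edgeR called 0, as it called 0 of 18599 gene tests (0%); at an unadjusted p under 0.05 there was 1 member test (5.56%) and 5.38% of all gene tests, and DESeq2 called 0 members. That test was *Bmp7* in fibroblasts, with 102 and 62.3 CPM in the mice of 3 months and 33.3 to 59.7 CPM in the 8 older ones. The groups did not overlap, and the log2 fold change was -0.86 (SE 0.28, unadjusted p = 0.00895, adjusted p = 0.575), from -1.16 to -0.50 with 1 mouse left out, the latter without the higher of the young mice. Smooth muscle had no mouse with 10 cells in this pool, and endothelial cells only 1 of 3 months, so they were not compared.

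Diet was compared over 11 FVB/NJ mice of 3 months with the kind of library (pool or single) as a covariate. Again no member passed the threshold in edgeR's test. Both mice under caloric restriction were of the pool, and the study states that restricted animals were housed singly. The part of housing in their values was not tested. Of 66 tests (9 members, 5 classes, each diet against control) 0 were called, where 0% to 2.16% of genes were called per class and diet (0.018% and 0.0811% in basal cells and fibroblasts on low protein and 0.424% in smooth muscle under caloric restriction, 306 of 68460 gene tests in all). An unadjusted p under 0.05 was found in 8 member tests (12.1%) and 6.17% of gene tests. Of these 8, 4 were falls under caloric restriction, led by *Tgfb2* in fibroblasts, with 32.6 and 36.4 CPM under restriction and 72.5, 392 and 40.5 CPM in control mice. The groups did not overlap, and 1 control mouse was far above the rest. The log2 fold change was -2.00 (SE 0.51, unadjusted p = 0.000864, adjusted p = 0.0592) in a fit where 1.31% of genes were called, -1.05 (adjusted p = 0.212) without that mouse, and -2.85 (adjusted p = 0.00928) without the other control mouse of the pool. Without the single low protein library it was -2.11 (adjusted p = 0.0475), and it was called in 4 of 18 alternative settings. In basal cells *Tgfb2* was at 13.4 and 30.6 CPM, 5 UMIs each, against 52.6, 168 and 51.9 CPM in control mice, a log2 fold change of -1.81 (SE 0.53, unadjusted p = 0.00320, adjusted p = 0.119), and -2.48 (adjusted p = 0.0450) without the first control mouse, where 1.08% of genes were called over all mice.

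Endothelial *Inhbb* was at 84.9 and 178 CPM in both mice under caloric restriction, from 2 and 5 UMIs in 10 cells each, and at 539.7, 517 and 405 CPM in control mice. The 6 mice on high fat or low protein diet lay between 284 and 607 CPM, so the restricted mice were below all 9 others. The log2 fold change against control was -1.82 (SE 0.47, unadjusted p = 0.00135, adjusted p = 0.439) over 977 genes, 0% of which were called, and -2.53 to -1.43 with 1 mouse left out. *Inhba* in fibroblasts was at 22.2 and 12.6 CPM against 50.5, 190.2 and 119.6 CPM, a log2 fold change of -1.49 (SE 0.58, unadjusted p = 0.0190, adjusted p = 0.303).

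The other 4 were in immune cells and fibroblasts. Macrophage *Bmp2* was at 60.6, 15.4 and 55.6 CPM in control mice, at 174, 344 and 0 CPM on low protein and at 207 and 165 CPM under caloric restriction. The restricted mice lay above all control mice, and the low protein mice did not, since that of the single library had 0 UMIs. The log2 fold change was 2.33 (SE 0.65, unadjusted p = 0.00296, adjusted p = 1.00) on low protein and 1.90 (SE 0.69, unadjusted p = 0.0150, adjusted p = 0.502) under restriction. Macrophage *Gdf15* was at 332, 159 and 1684 CPM on high fat and at 152, 76.8 and 334 CPM in control mice, with overlap, a log2 fold change of 1.45 (SE 0.56, unadjusted p = 0.0207, adjusted p = 0.997). Fibroblast *Gdf15* was at 14.6, 7.25 and 33.8 CPM on low protein and at 33.0, 11.9 and 66.9 CPM in control mice, a log2 fold change of -1.47 (SE 0.60, unadjusted p = 0.0229, adjusted p = 0.967). DESeq2 called 1 of the members, *Tgfb2* in basal cells under caloric restriction.

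**Figure D5:**
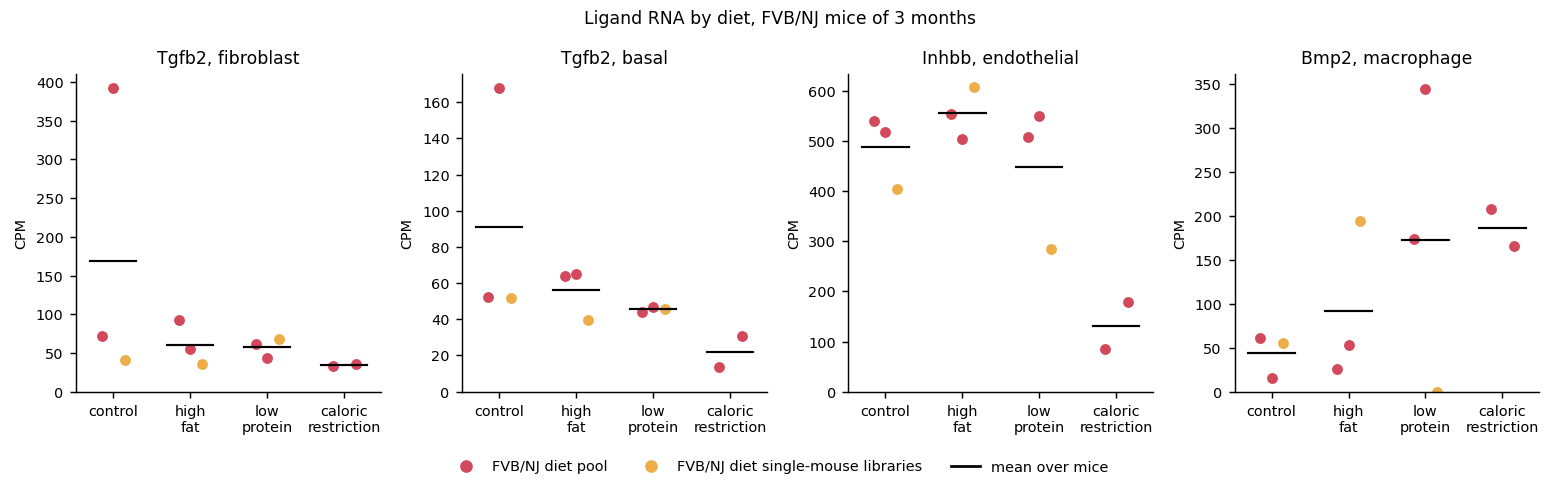
CPM per mouse of *Tgfb2* in fibroblasts and basal cells, *Inhbb* in endothelial cells and *Bmp2* in macrophages, by diet in 11 FVB/NJ mice; colors give the kind of library and bars the mean over mice. The 1 control mouse at 392.3 CPM sets the height of the first panel, and both mice under caloric restriction lie below the other 9 for endothelial *Inhbb*.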

How the data were processed

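Tables of UMI counts per gene and cell were deposited by the authors, 1 per mouse (10x 3′ kit, mm10); per the file headers Cell Ranger 6.0.1 made the pools and 3.1.0 the single-mouse libraries, and the submitters' notes also name Seurat. Kept cells had 500 genes and 200 UMIs or more, with mitochondrial UMIs at 10% or less; the 1% stated by the study would leave 2596 of 53352 cells. A cell joined a class with at least 20 panel UMIs per 10000 non-Svs UMIs (fibroblasts 5, lowered from 20 after a first pass), at least 2 panel UMIs and at least 1 of a gate gene (*Myh11*, *Col1a1* or *Col1a2*, *Pecam1*, *C1qa*, *Krt5* or *Krt14*). *Actg2* was left out of the smooth muscle panel because cells with *Gpx5* carried it. Smaller classes had limits of their own and no gate gene. A cell that passed another class lost its fibroblast label unless it had at least 20 fibroblast panel UMIs per 10000 non-Svs UMIs. Cells still in several classes were set aside, and no doublet caller was run. Counts were summed per mouse and class (at least 10 cells) and tested with edgeR (filterByExpr, TMM, quasi-likelihood F test, Benjamini-Hochberg over all genes tested, threshold 0.05), with log2 standard errors derived from F. Subsets used paired permutation tests of CPM differences, exact up to 16 mice and with 100000 resamples beyond, on members with at least 20 UMIs, with p not adjusted over the members. CPM are UMIs per 1000000 UMIs of the sum. The members and lists were chosen with earlier results of these data known. Named were the 9 members, the 2 list genes with the largest log2 fold change in each class, and the 3 genes outside the marker lists with the highest r of at least 0.6 (those of *Tgfb2* are not reported here). Integrated stress genes and other values beside results were added after seeing the data. Alternatives covered DESeq2, scaling, filters, class limits, pools and each mouse left out. The scripts were tested on simulated data. Intervals and floors cover counting error only. Tools were Python 3.11.15, NumPy 2.4.6, SciPy 1.17.1, pandas 2.3.3, matplotlib 3.10.9, R 4.3.3, edgeR 4.0.16, limma 3.58.1, Matrix 1.6.5 and DESeq2 1.42.0.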

Additional observations from a re-analysis of the deposited data

Results flagged for a closer look

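In each pool the members' levels per mouse were screened, in the 50 groups of a member and a class that had at least 50 UMIs, for a mouse far from the rest by Dixon's gap ratio. These groups mix the ages or diets of a pool, and 11 of 50 held such a mouse. The chance rate of about 1 in 20 holds for normally distributed values of equal precision. Small counts from unequal cell numbers are not such values, so 11 of 50 cannot be judged against it. All 11 were the highest of their group. In the diet pool control replicate 2 stood out for *Tgfb2* in fibroblasts (392 CPM against 92.2 CPM in the next mouse) and in basal cells (168 CPM against 65.0 CPM in the next mouse), for *Inhba* in fibroblasts (190.2 CPM against 50.5 CPM in the next mouse) and for *Bmp2* in smooth muscle (105 CPM against 54.1 CPM in the next mouse). These rest on 33, 15, 16 and 4 UMIs, and that mouse had 30 fibroblasts, 17 basal cells and 11 smooth muscle cells. High fat replicate 1 stood out for *Gdf15* in fibroblasts (82.2 CPM against 33.0 CPM in the next mouse). In the aging pool a mouse of 3 months, replicate 1, stood out for *Bmp7* in fibroblasts (102 CPM against 62.3 CPM in the next mouse) and for *Tgfb2* in basal cells (162 CPM against 81.9 CPM in the next mouse, 19 UMIs in 14 cells). An untreated mouse of 28 months, replicate 2, stood out in fibroblasts for *Tgfb1* (99.1 CPM against 36.4 CPM in the next mouse) and for *Tgfb2* (81.7 CPM against 45.5 CPM in the next mouse). The other untreated mouse of that age stood out for *Inhba* in macrophages (79.7 CPM against 18.9 CPM in the next mouse), and a rapamycin-treated mouse of 20 months, replicate 2, for *Tgfb2* in secretory cells (7.52 CPM against 2.92 CPM in the next mouse).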

How the results depend on the processing

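Of the 45 calls between classes, 30 went the same way in every alternative that could be fitted; the aging pool alone, with 30 pairs and no smooth muscle, gave 10 higher and 11 lower. Log2 values that turned were 0.022 for *Bmp7* in smooth muscle, 0.57 for *Tgfb2* and 0.15 for *Gdf15* in endothelial cells, and -1.01 for *Bmp7* and -2.10 for *Tgfb3* in secretory cells with library size scaling; -0.17 for *Inhba* in macrophages with DESeq2; and 0.058 for *Tgfb2* in endothelial cells with at least 20 cells. In the aging pool alone they were 0.35 for *Tgfb2* and 0.17 for *Gdf15* in endothelial cells, -0.15 for *Gdf15* and 0.024 for *Bmp4* in basal cells; in the diet pool alone 0.063 for *Gdf15* in endothelial cells, 0.0068 for *Bmp2* and -0.26 for *Gdf15* in basal cells, and -0.21 for *Tgfb3* in secretory cells. The cause was not tested. Over age, 1 of 36 tests was called without the filter on low counts. Over diet, DESeq2 called 1 and the fit without the filter 4 of 153 tests, and leaving out 1 mouse gave 0 to 2 calls. Deviations of same-numbered mice correlated at -0.30 to 0.11 in the aging pool and at -0.24 to 0.22 in the diet pool. Such correlations cannot show whether same-numbered mice shared a litter or a day. The replicate block called 1 member over diet. For subsets, the *Tgfb1* difference between *Mrc1*/*Cd163* and *Trem2*/*Cd72* macrophages became 1.98 CPM with all macrophages assigned by the larger sum and 1.68 CPM with the young and the old individual left out, and that of *Gdf15* 187 CPM by the larger sum. Without those individuals (chosen after seeing the data, as were the edgeR fits of subsets and the fibroblast limit of 20) *Col6a5*/*Clec3b* fibroblasts differed by 7.47 CPM for *Inhba* and -22.8 CPM for *Bmp4*, and *Rorb*/*Wif1*/*Wnt2* fibroblasts by 0.329 CPM for *Gdf15*. Depth limits the endothelial and smooth muscle values of the pools, some of which rest on 10 cells and 2 UMIs of a ligand; 26.3% of smooth muscle, 23.1% of endothelial and 24.7% of basal cells lay within 2-fold above their limit.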

Other observations

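Outside the 6 classes, T and NK cells carried *Tgfb1* at 170.4 ± 70.8 CPM (SD, n = 23), from 424 UMIs, and B cells at 123 ± 59.0 CPM (SD, n = 4). Pericytes, the contractile cells around capillaries, carried *Tgfb2* at 123 ± 58.9 CPM (SD, n = 5), from 25 UMIs. Prostate-like epithelial cells carried *Bmp7* at 43.5 ± 11.4 CPM (SD, n = 13), from 20.3 to 59.9 CPM, and held 20.5% ± 17.8 (SD, n = 21) of its UMIs in the Svs-rich mice. Epididymis-like cells, found in the libraries of the young and the old individual, carried *Gdf15* at 149 and 182 CPM, from 5202 of the 14945 UMIs of this gene over all mice, and clear-like cells at 186 and 308 CPM.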
